A study of Mus musculus with 24 samples.

Results

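DNA replication genes are followed here as 1 group of 36 named mouse genes, listed by symbol, of which 35 had a value among the 17097 genes tested. Chaf1a had no probe set of its own. Each gene was read from its probe set with the largest spread over all arrays, whatever the group. The 35 genes fall into the MCM helicase (7), origin licensing (4), partners of the active helicase (4), the sliding clamp and its loader (6), polymerases and primase (5), single-strand binding (2), nucleotide supply (3), chromatin at the fork (2) and G1/S regulators (2).

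The study asked how C/EBPβ, encoded by Cebpb, works with loss of Blnk in mouse leukaemia, and read RNA on 24 Affymetrix arrays. Blnk is an adaptor protein of pre-B cell receptor signalling, and LAP is the activating form of C/EBPβ. The deposited values are log ratios, taken here as log2, centred on 0 for each probe set, once over 8 cell-line arrays and once over 16 tumours, so every value is a position relative to that set and no level of 1 gene can be set against another. Cells and tumours have separate zero points and only differences within a set were compared.

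The cell line BKO408 came from a preB-ALL (precursor B-cell acute lymphoblastic leukaemia) of a mouse lacking Blnk and was grown with 5 ng/ml IL-7 and 10% serum. It was measured on 4 arrays, and BKO408 carrying a retrovirus for LAP on 4 more, so both groups lack Blnk and come from 1 line. The tumours comprised 5 preB-ALL from mice with a Blnk knockout (Blnk preB-ALL), 3 preB-ALL of mice lacking Blnk and carrying a LAP transgene (LAP/Blnk preB-ALL), and, from mice labelled with the LAP transgene alone, 4 preB-ALL (LAP preB-ALL) and 4 B-ALL (LAP B-ALL). Whether BKO408 received a control virus, the promoter of the transgene, the age and strain of the mice, the tissue taken and its tumour share are not stated in the labels. From the labels, a difference with LAP in the cell line cannot be told apart from one of carrying a retrovirus. No label ties a replicate number to a separate culture or animal, so the p-values measure only the spread between these samples, and the number of arrays limits the precision.

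Replication begins when the origin recognition complex, with Cdc6 and Cdt1, loads a ring of Mcm2 to Mcm7 on DNA in G1. Cyclin E with its kinase, and a second kinase, turn that ring into the moving helicase by adding Cdc45 and the GINS proteins, and primase, polymerases, the clamp Pcna and ribonucleotide reductase then support synthesis. Many of these genes are transcribed in a burst at the G1/S border under E2F factors, and dividing pre-B cells, which grow in response to IL-7, express them strongly.

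The labels were first read against marker genes. Cebpb has 3 probe sets, and the most variable read -4.50 to -1.94 in the Blnk preB-ALL and between -0.03 and 0.90 in 9 of the 11 tumours labelled LAP, but at -1.41 in LAP preB-ALL 2 and at -3.11 in the library labelled LAP B-ALL 4, which lay among the tumours without the transgene. In the cell line the same probe set overlapped between the groups, at -0.14 to 0.01 without and -0.01 to 0.24 with LAP. The other 2 Cebpb probe sets did not separate the groups. The 1 Blnk probe set did not separate tumours with and without Blnk, and which part of either gene the probe sets cover is not stated in the labels. Vpreb1, which marks pre-B cells, read -8.97 to -8.78 in LAP B-ALL 1 to 3, -8.49 in LAP preB-ALL 2 and -8.89 in LAP preB-ALL 4. It lay between -0.45 and 0.35 in all other tumours, the library labelled LAP B-ALL 4 included (0.14). The median of 8 erythroid markers was at 5.08, 5.16 and 5.98 in LAP B-ALL 1 to 3 and 5.37 in LAP preB-ALL 4, and at 1.00 or less elsewhere. The median of 12 granulocyte markers was highest in Blnk preB-ALL 5 (3.38), LAP B-ALL 4 (2.63) and LAP preB-ALL 4 (2.53), and Blnk preB-ALL 5 was also the highest for stromal and endothelial markers (1.45). Results that rest on Blnk preB-ALL 5, LAP preB-ALL 4 and the library labelled LAP B-ALL 4 are therefore given with and without them.

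Whether LAP changes replication genes was first read in BKO408. With LAP, 22 of the 35 replication genes were lower and 0 were higher, over a background of 11.8% of all genes lower and 10.5% higher in this comparison (22.3% in either direction). The falls were small. The largest was 1.33-fold for Prim2, the large subunit of primase, the median difference over the 35 genes was -0.12 on the log2 scale, against -0.01 over all genes, and the single differences ran from -0.41 to 0.09. The difference lay below 0 for 34 of 35 genes, Tyms being the exception, where 57.1% of all genes lay below 0, and 25 genes had an unadjusted p under 0.05, where 33.4% of all genes did. Tests are limma with Benjamini-Hochberg adjustment over all 17097 genes, and a gene that passed has an adjusted p under 0.05.

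The shift could be seen in single arrays. The median over the 35 genes was 0.08, 0.05, 0.06 and 0.07 in control arrays 1 to 4 and -0.06, -0.07, -0.06 and -0.07 in LAP arrays 1 to 4. The groups did not overlap in this median, nor, with LAP lower, in the values of 25 of the 35 genes, against 14.4% of all genes. Over 50 other replication genes the array medians were 0.03 to 0.05 without and -0.05 to -0.03 with LAP. Whether fewer cells were replicating or each held less of these RNAs cannot be told apart in such bulk samples. The median of 8 B lineage markers also lay lower with LAP, at -0.04 to -0.01 against 0.03 to 0.10. That of 11 monocyte and macrophage markers lay higher by a narrow margin, at 0.0038 to 0.0518 against -0.0920 to 0.0021. T cell marker medians were -0.08 to 0.01 with LAP against 0.01 to 0.09, and stromal and endothelial ones -0.05 to 0.00 against -0.01 to 0.07. Both overlapped between the groups, as did the granulocyte and erythroid marker medians. The part of any marker list in the result was not tested. When all 24 arrays were put in 1 fit, which gives cells the larger spread of the tumours, 0 of the 35 genes passed and 21 of all genes did, while leaving out 1 array in turn left 17 to 22. The genes that lost their call in 1 or more of the fits that left out 1 array were Mcm3, Orc1, Cdc45, Gins3 and Uhrf1.

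**Figure D1:**
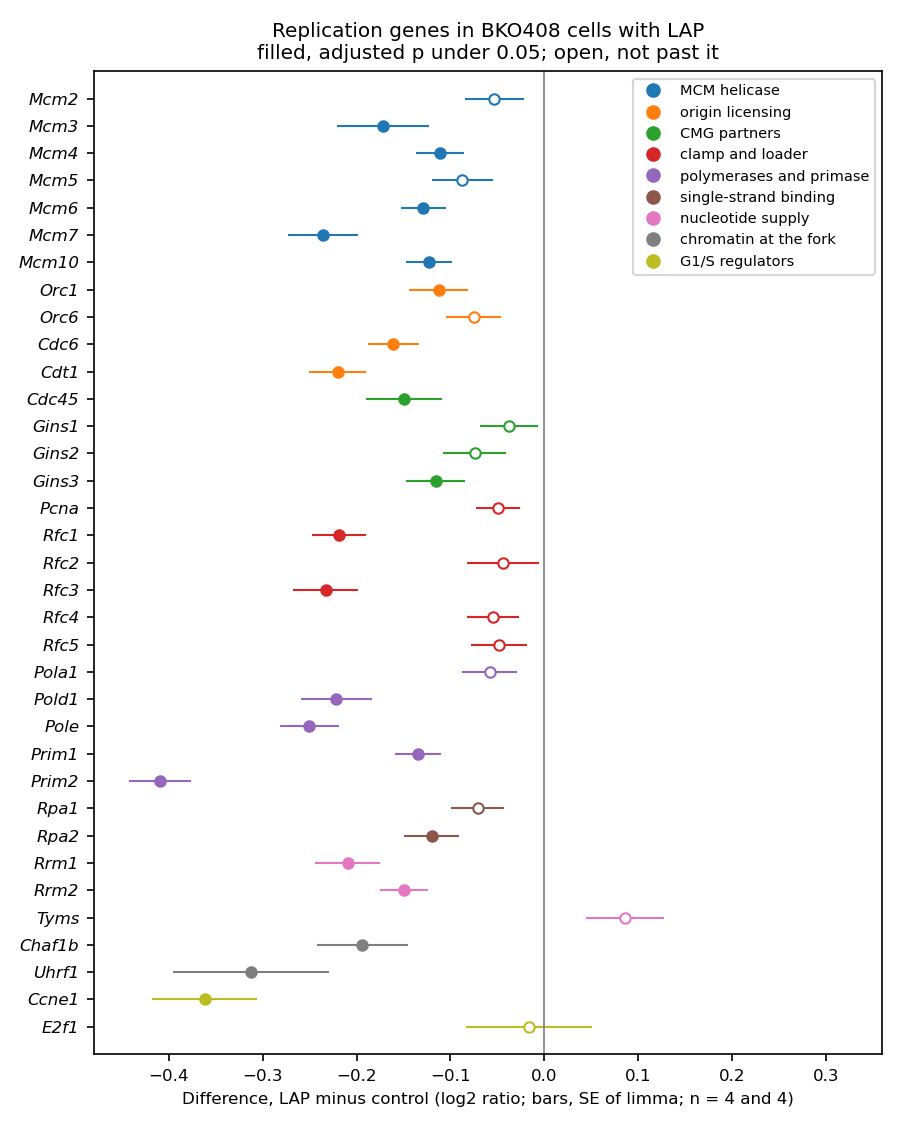
Difference between BKO408 with LAP and control for 35 replication genes, in log2 ratio, with the standard error of limma as bars (4 arrays against 4) and colours for the roles. Filled points passed at an adjusted p under 0.05; all 22 of these lie left of 0, from -0.41 (Prim2) to -0.11 (Mcm4).

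The promoters of these genes were read next. RefSeq promoter windows of mouse build GRCm38.p6 were at hand for 29 of the 35 genes, and the 250 bases before the annotated start were searched on both strands for the E2F core TTCCCGC and for its variants, which are TTGGCGC as well as TTGCCGC and also TTCGCGC. No window was matched for Mcm4, Gins1, Gins2, Rfc2, Pole and Prim2. A core stood in 14 of the 29 genes (48.3%), against 13.2% of the 13605 tested genes with a window, 16 of 40 other replication genes (40%) and 9.01% of the 27025 genes of the table. It stood in 12 of the 19 genes that were lower with LAP (63.2%) and in 2 of the 10 that did not pass (20%), a count with no test. The 14 genes were Mcm5, Mcm6, Mcm7, Orc1, Cdc6, Gins3, Rfc3, Pola1, Prim1, Rpa2, Rrm1, Rrm2, Chaf1b and Uhrf1. A match says only that these letters are in the window, and no binding was measured. A missing match says only that they are not in the 250 bases before that annotated start.

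The following windows, read 5′ to 3′ on the strand of the gene and ending at the base before its annotated start, show the 4 largest falls among genes with a core, the gene with most cores (Mcm6) and, for contrast, Ccne1, the largest fall with a window but no core. Capitals mark the cores. They are, by gene, Uhrf1 at chr17:56303087-56303336 on the plus strand, Mcm7 at chr5:138171884-138172133 on the minus strand, Rfc3 at chr5:151651209-151651458 on the minus strand, Rrm1 at chr7:102441445-102441694 on the plus strand, Mcm6 at chr1:128359706-128359955 on the minus strand and Ccne1 at chr7:38107491-38107740 on the minus strand.
Uhrf1: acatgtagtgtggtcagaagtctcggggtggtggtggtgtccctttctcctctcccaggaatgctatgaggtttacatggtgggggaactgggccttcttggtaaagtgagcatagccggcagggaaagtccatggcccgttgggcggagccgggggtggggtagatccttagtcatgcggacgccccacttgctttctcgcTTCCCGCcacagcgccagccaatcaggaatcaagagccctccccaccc
Mcm7: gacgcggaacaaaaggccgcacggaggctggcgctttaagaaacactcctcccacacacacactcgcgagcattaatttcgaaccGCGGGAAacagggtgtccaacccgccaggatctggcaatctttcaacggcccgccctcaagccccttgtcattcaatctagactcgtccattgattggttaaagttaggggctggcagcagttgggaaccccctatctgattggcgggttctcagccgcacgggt
Rfc3: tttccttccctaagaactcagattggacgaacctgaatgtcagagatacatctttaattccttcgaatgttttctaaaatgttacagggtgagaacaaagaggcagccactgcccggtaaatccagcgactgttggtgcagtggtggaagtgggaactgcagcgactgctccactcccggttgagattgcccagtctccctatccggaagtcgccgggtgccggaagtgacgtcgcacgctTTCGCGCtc
Rrm1: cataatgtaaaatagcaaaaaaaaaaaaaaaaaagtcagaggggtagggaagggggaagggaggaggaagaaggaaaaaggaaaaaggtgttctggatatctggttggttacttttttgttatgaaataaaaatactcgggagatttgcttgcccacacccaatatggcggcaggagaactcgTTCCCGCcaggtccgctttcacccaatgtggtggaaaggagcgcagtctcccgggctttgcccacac
Mcm6: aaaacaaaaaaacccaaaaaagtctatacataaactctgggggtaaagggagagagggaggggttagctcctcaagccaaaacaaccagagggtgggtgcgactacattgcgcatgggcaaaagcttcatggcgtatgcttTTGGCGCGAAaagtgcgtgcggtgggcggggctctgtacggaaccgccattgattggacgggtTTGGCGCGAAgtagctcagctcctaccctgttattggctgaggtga
Ccne1: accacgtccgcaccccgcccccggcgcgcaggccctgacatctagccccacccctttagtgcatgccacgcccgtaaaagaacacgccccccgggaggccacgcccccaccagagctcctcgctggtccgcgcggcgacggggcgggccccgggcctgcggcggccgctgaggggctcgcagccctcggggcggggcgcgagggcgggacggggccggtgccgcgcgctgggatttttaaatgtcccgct
The core began 48 bases before the start in Uhrf1, 165 in Mcm7, 9 in Rfc3 and 67 in Rrm1. In Mcm6 there were 4 cores as 2 overlapping pairs, beginning 109, 106, 46 and 43 bases before the start, each pair being TTGGCGC read together with GCGCGAA, the other strand's TTCGCGC. Uhrf1 and Mcm7 each have a second RefSeq start, whose windows also held 1 core.

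Of the MCM genes, the ring that unwinds DNA ahead of the fork and Mcm10, 5 of 7 genes fell with LAP. Mcm7 was at 0.21, 0.06, 0.11 and 0.14 in control arrays 1 to 4 and -0.11, -0.15, -0.06 and -0.09 in LAP arrays 1 to 4. Every LAP array lay below every control array, with a difference of -0.24 (SE 0.04, adjusted p = 0.00154). Mcm3 was at 0.20, -0.01, 0.18 and 0.18 in control arrays 1 to 4 and 0.01, -0.04, -0.02 and -0.10 in LAP arrays 1 to 4. Control array 2 lay within the LAP arrays, so the groups overlapped, and the difference of -0.17 (SE 0.05, adjusted p = 0.0327) did not pass in 6 of the 8 fits that left out 1 array. Mcm6 was at 0.06, 0.05, 0.07 and 0.08 in control arrays 1 to 4 and -0.06, -0.07, -0.05 and -0.07 in LAP arrays 1 to 4, and Mcm4 at 0.09, 0.06, 0.04 and 0.04 in control arrays 1 to 4 and -0.06, -0.07, -0.04 and -0.06 in LAP arrays 1 to 4. Both were separate between the groups, with differences of -0.13 (SE 0.02, adjusted p = 0.00366) and -0.11 (SE 0.03, adjusted p = 0.0112). Mcm10, which helps to start the assembled helicase, fell by 0.12 (SE 0.02, adjusted p = 0.00553).

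The other 2 ring subunits did not pass. Mcm5 was at 0.12, 0.00, 0.04 and 0.06 in control arrays 1 to 4 and -0.02, 0.00, -0.02 and -0.08 in LAP arrays 1 to 4, separate between the groups by a narrow margin, with a difference of -0.09 (SE 0.03, adjusted p = 0.0902). Mcm2 was at 0.08, -0.01, 0.05 and -0.01 in control arrays 1 to 4 and -0.06, 0.01, 0.01 and -0.05 in LAP arrays 1 to 4. Its groups overlapped, at a difference of -0.05 (SE 0.03, adjusted p = 0.28).

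Among the origin licensing genes 3 of 4 fell. Cdt1, which brings the ring to the origin, fell by 0.22 (SE 0.03, adjusted p = 0.000656), from control arrays at 0.07 to 0.16 to LAP arrays at -0.14 to -0.07. Of its other 2 probe sets, 1 also fell and the other was at 0.10, which did not pass. Cdc6, the ATPase of loading, fell by 0.16 (SE 0.03, adjusted p = 0.00225), and Orc1, the large subunit of the origin recognition complex, by 0.11 (SE 0.03, adjusted p = 0.0306). The second Orc1 probe set differed by 0.05, which did not pass, and Orc1, Mcm10 and Chaf1b did not pass when the probe sets of a gene were averaged. Orc6, a small subunit, had a difference of -0.08 (adjusted p = 0.0993). Of the helicase partners, Cdc45 fell by 0.15 (SE 0.04, adjusted p = 0.0265) and Gins3 by 0.12 (SE 0.03, adjusted p = 0.0254), while Gins1 (-0.04) and Gins2 (-0.07) did not pass.

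Polymerases and primase held the largest single fall, and 4 of 5 genes fell. Prim2 was at 0.25, 0.16, 0.18 and 0.27 in control arrays 1 to 4 and -0.21, -0.21, -0.21 and -0.16 in LAP arrays 1 to 4. The gap between the groups, from 0.16 down to -0.16, was wider than the range within either group, and the difference was -0.41 (SE 0.03, adjusted p = 2.76e-05). Pole, the catalytic subunit of the leading-strand polymerase, was at 0.12, 0.08, 0.13 and 0.18 in control arrays 1 to 4 and -0.16, -0.14, -0.08 and -0.12 in LAP arrays 1 to 4. These groups were also apart, with a difference of -0.25 (SE 0.03, adjusted p = 0.000401). Pold1, catalytic subunit of the lagging-strand polymerase, fell by 0.22 and Prim1, the catalytic subunit of primase, by 0.13, whereas Pola1, the polymerase that extends the primer, had a difference of -0.06 (adjusted p = 0.204).

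The clamp and its loader were divided. Rfc3, a loader subunit, was at 0.18, 0.09, 0.07 and 0.19 in control arrays 1 to 4 and -0.09, -0.13, -0.07 and -0.11 in LAP arrays 1 to 4. Rfc3 and Rfc1, the large loader subunit, fell by 0.23 and 0.22 (adjusted p = 0.0011 and 0.000522) with no overlap, whereas Rfc2, Rfc4 and Rfc5 had differences of -0.04, -0.05 and -0.05 and did not pass. Pcna, the clamp that holds polymerases on DNA, was at 0.04, 0.01, 0.02 and 0.03 in control arrays 1 to 4 and -0.02, -0.03, -0.03 and -0.01 in LAP arrays 1 to 4. The 2 groups did not overlap, but the difference of -0.05 (SE 0.02) did not pass (adjusted p = 0.173). Of the single-strand binding proteins Rpa2 fell by 0.12 (adjusted p = 0.016) and Rpa1 had a difference of -0.07 (adjusted p = 0.112).

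In nucleotide supply both subunits of ribonucleotide reductase fell, Rrm1 by 0.21 (SE 0.03, adjusted p = 0.00188) and Rrm2 by 0.15 (SE 0.03, adjusted p = 0.00232). Tyms, which makes thymidylate, was the 1 gene above 0, at 0.09 (SE 0.04, adjusted p = 0.184). Its 5 probe sets disagreed, and another 1 fell by 0.36 (adjusted p = 0.0157). Of the genes that act on chromatin at the fork, Uhrf1, which reads half-methylated DNA behind it, was at 0.01, 0.11, 0.30 and 0.07 in control arrays 1 to 4 and -0.20, -0.01, -0.17 and -0.38 in LAP arrays 1 to 4. LAP array 2 and control array 1 came close to each other without overlap. The difference was -0.31 (SE 0.08, adjusted p = 0.0239), and a second probe set fell by 0.33 (SE 0.03). Chaf1b, a subunit of the histone chaperone of the fork, fell by 0.19 (SE 0.05, adjusted p = 0.0179).

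Of the G1/S regulators 1 of 2 fell. Ccne1, which encodes cyclin E1, was at 0.08, 0.14, 0.28 and 0.30 in control arrays 1 to 4 and -0.21, -0.22, -0.08 and -0.14 in LAP arrays 1 to 4. All LAP arrays lay below all control arrays, with a difference of -0.36 (SE 0.06, adjusted p = 0.00135), the second largest of the 35. E2f1, which encodes an activating E2F factor, was at 0.07, -0.09, 0.02 and 0.02 in control arrays 1 to 4 and -0.17, -0.02, 0.18 and -0.03 in LAP arrays 1 to 4. Its groups overlapped over their whole range, with a difference of -0.02 (SE 0.07, adjusted p = 0.902).

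Other probe sets of the same genes were read in the same way. Of 30 further probe sets, 24 had the sign of the chosen one, 15 were lower with LAP past the threshold and 0 higher. The share of all probe sets called in that fit is not given here. Further probe sets read the same samples and are no separate support. Of the 18 that belong to genes that fell, 16 had the same sign and none passed in the opposite direction. In the comparisons of tumour groups, 22 to 26 of the 30 had the sign of the chosen probe set.

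A list of 50 further replication genes gave the surroundings of the 35. Of these 22 fell and 4 rose in BKO408 with LAP, where 11.8% of all genes fell and 10.5% rose. The share that rose was thus below that of all genes. The median difference was -0.08, against -0.01 over all genes. The largest falls were of E2f7 (-0.36, adjusted p = 1.45e-05) and E2f8 (-0.27), which encode repressing E2F factors, Ccne2 (-0.35), which encodes cyclin E2, and Rnaseh2a (-0.27), a nuclease subunit that removes RNA from DNA. The 4 that rose were 3 further origin recognition subunits, Orc4 (0.57, SE 0.05), Orc5 (0.16) and Orc2 (0.09), and Rbl1 (0.28), which encodes the pocket protein p107. Each was read on its most variable probe set only, of 4 for Orc4, 3 for Orc2, 2 for Rbl1 and 1 for Orc5. Orc4 was at -0.42, -0.38, -0.19 and -0.40 in control arrays 1 to 4 and 0.23, 0.20, 0.19 and 0.29 in LAP arrays 1 to 4, so that every LAP array lay above every control array. Orc1 was lower on 1 of its 2 probe sets and did not pass in 6 of the 8 fits that left out 1 array, and Orc6 did not pass.

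**Figure D2:**
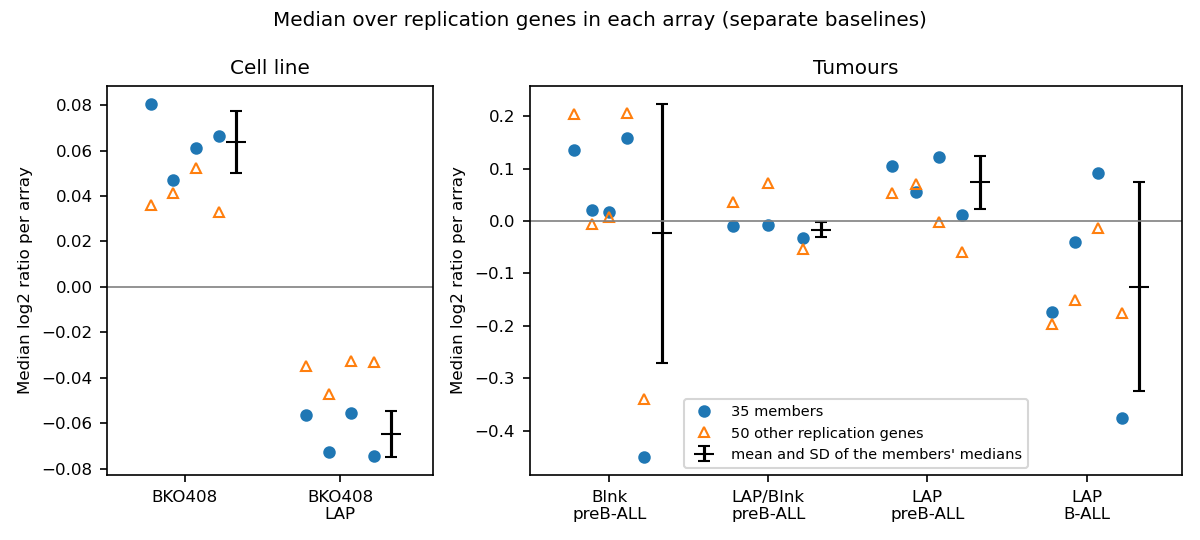
Median log2 ratio over 35 replication genes (circles) and over 50 other replication genes (triangles) in each array, cell line on the left and tumours on the right with their own zero, with the mean and SD of the circles in black. LAP arrays of the cell line all lie below the control arrays, and among tumours the lowest circles are Blnk preB-ALL 5 (-0.45) and the library labelled LAP B-ALL 4 (-0.38).

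In the tumours, 0 of the 35 genes passed in any of the 6 comparisons of groups. The shares of all genes called were small too: 0.0175% between LAP/Blnk and Blnk preB-ALL, 0.0819% between LAP and Blnk preB-ALL, 1.45% between LAP B-ALL and Blnk preB-ALL, 2.37% between LAP/Blnk and LAP preB-ALL, 0% between LAP B-ALL and LAP preB-ALL and 3.52% between LAP B-ALL and LAP/Blnk preB-ALL. At an unadjusted p under 0.05, in that order, 4, 7, 5, 5, 9 and 5 of the 35 genes passed, where 5.78%, 13.2%, 21.2%, 18%, 11% and 22% of all genes did. These 6 comparisons share groups and are not independent of each other. A missed threshold does not show that groups were alike: the median SE of these differences ran from 0.20 to 0.22, against 0.03 in the cell line.

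Single tumours differed more than groups. The median over the 35 genes was 0.14, 0.02, 0.02, 0.16 and -0.45 in Blnk preB-ALL 1 to 5, -0.01, -0.01 and -0.03 in LAP/Blnk preB-ALL 1 to 3, 0.11, 0.05, 0.12 and 0.01 in LAP preB-ALL 1 to 4 and -0.17, -0.04, 0.09 and -0.38 in the libraries labelled LAP B-ALL 1 to 4. Blnk preB-ALL 5 and LAP B-ALL 4 were the lowest. In Blnk preB-ALL 5, 34 of the 35 genes were below 0 and 17 were the lowest of the 16 tumours, whereas 34.7% of all genes were below 0 and 3.56% the lowest. In LAP B-ALL 4, 31 of 35 were below 0, against 56.6% of all genes, and 5 were the lowest of all tumours, against 9.53%. Both had high granulocyte markers (3.38 and 2.63), whose part in this was not tested; LAP preB-ALL 4, with 2.53, had a median of 0.01.

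**Figure D3:**
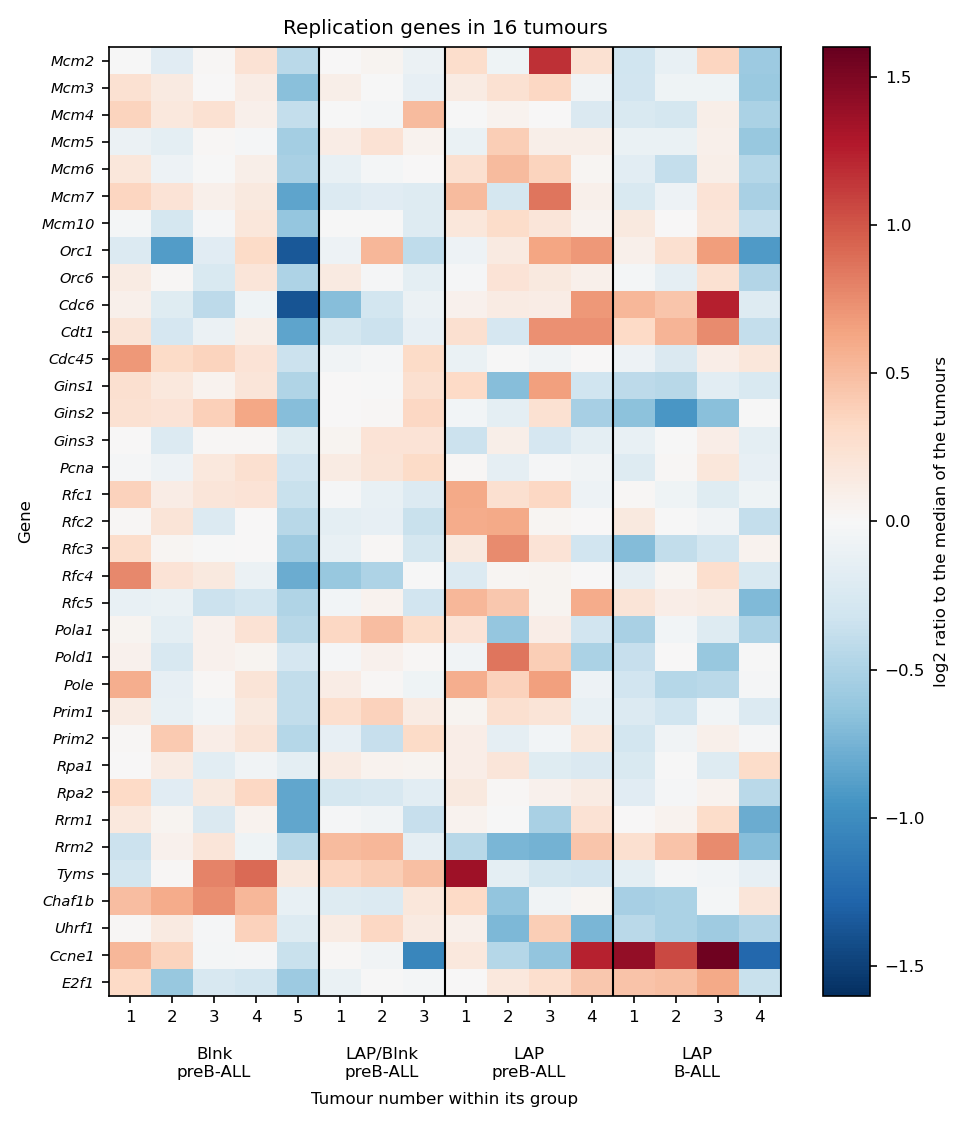
Log2 ratio to the median of the tumours for 35 replication genes (rows) in 16 tumours (columns, by group), blue below and red above the median. Column 5 of Blnk preB-ALL is blue in nearly every row, and Ccne1 reaches from -1.26 to 1.56.

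Whether LAP changes replication genes when Blnk is absent was read in LAP/Blnk against Blnk preB-ALL. The median difference over the 35 genes was 0.04, against -0.02 over all genes, with 22 genes above and 13 below 0 (55.5% of all genes below), and with 1 tumour left out it ran from -0.08 (without Blnk preB-ALL 5) to 0.10 (without Blnk preB-ALL 1). The genes with no overlap between the groups were Mcm5, Gins3 and Pola1, all 3 higher in LAP/Blnk, where 2.67% of all genes were higher and 2.69% lower without overlap. The lowest unadjusted p were those of Prim1 (0.31, SE 0.13), Chaf1b (-0.53, SE 0.24), Pola1 (0.42, SE 0.19) and Gins3 (0.23, SE 0.11), with adjusted p from 0.8 to 0.861. The second probe set of Chaf1b had the opposite sign (0.12), and those of Prim1 (0.23) and Gins3 (0.15) the same sign. Pola1 has 1 probe set. These single differences include Blnk preB-ALL 5.

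LAP preB-ALL were set against Blnk preB-ALL to read the transgene against the Blnk loss. The median difference was 0.15, against 0.00 over all genes, with 21 genes above and 14 below 0 (49.3% of all genes below), and with 1 tumour left out it ran from 0.03 (without Blnk preB-ALL 5) to 0.23 (without Blnk preB-ALL 1). Rfc5 had the lowest p, with a difference of 0.67 (SE 0.18, adjusted p = 0.16), and was the 1 gene higher without overlap, where 1.72% of all genes were higher and 2.87% lower. Orc1 (0.81, SE 0.36), Chaf1b (-0.53), E2f1 (0.50), Rfc2 (0.40), Mcm6 (0.35) and Mcm10 (0.33) also had an unadjusted p under 0.05, and adjusted p from 0.323 to 0.37. These single differences include Blnk preB-ALL 5, the lowest Blnk tumour for Orc1 (-1.35), Mcm6 (-0.51) and Mcm10 (-0.62). That tumour was also the lowest of its group for Rfc2, Rfc5 and Chaf1b, but not for E2f1.

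LAP B-ALL were also set against Blnk preB-ALL. The median difference was -0.10, against -0.03 over all genes, with 23 genes below 0, where 56% of all genes were. With 1 tumour left out the median ran from -0.23 (without Blnk preB-ALL 5) to -0.02 (without LAP B-ALL 4). Cdc6 (0.90, SE 0.31) and E2f1 (0.58, SE 0.21) were higher in LAP B-ALL and Gins2 (-0.73, SE 0.25), Chaf1b (-0.67, SE 0.22) and Uhrf1 (-0.56, SE 0.20) lower, with adjusted p from 0.107 to 0.135, so none passed. Uhrf1 was the 1 gene lower without overlap, where 5.16% of all genes were lower and 3.36% higher. Without the library labelled LAP B-ALL 4, 4 genes passed: Cdc6 (1.13) and E2f1 (0.80) higher, and Gins2 (-0.92) and Chaf1b (-0.81) lower. This was 11.4% of the 35 genes, near the 10.7% of all genes called in that fit. Without Blnk preB-ALL 5, Gins2 alone of the 35 passed (-0.94, adjusted p = 0.0314), as did 2.9% of all genes. Without Blnk preB-ALL 5, LAP preB-ALL 4 and LAP B-ALL 4 together, a set chosen after its values were seen, 8 passed: Cdc6, E2f1 and Ccne1 higher and Gins2, Cdc45, Rfc3, Pole and Chaf1b lower. In that fit 22.9% of the 35 genes and 16.5% of all genes passed, with a median difference of -0.21 over the 35.

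The tumours with LAP were also compared with each other. LAP/Blnk against LAP preB-ALL had a median difference of -0.14, with 2 genes higher (Pcna and Pola1) and 6 lower (Mcm6, Mcm10, Cdc6, Rfc2, Rpa2 and E2f1) without overlap, where 9.08% of all genes were higher and 8.18% lower. Without the 3 tumours Rfc1 (-0.51) was lower and Rrm2 (0.94) higher past the threshold, where 3.09% of all genes passed. LAP B-ALL against LAP preB-ALL had a median of -0.24, with 27 of 35 genes below 0 against 56.1% of all genes. With 1 tumour left out this median ran from -0.29 (without LAP B-ALL 3) to -0.14 (without LAP B-ALL 4), and it was -0.17 without the 3 tumours. Pole (-0.69, SE 0.20) and Mcm6 (-0.52, SE 0.16) had the lowest p, both with an adjusted p of 0.35, and Mcm3 alone was lower without overlap, where 3.37% of all genes were lower and 1.84% higher. Pole passed without LAP preB-ALL 4 (-0.84), in a fit that called 1.7% of all genes. Without the 3 tumours 8 genes passed (22.9%, against 7.98% of all genes), Ccne1 (1.65) and Rrm2 (1.13) higher and Mcm3, Mcm6, Gins2, Rfc1, Rfc3 and Pole lower. Of those left out, LAP preB-ALL 4 was the highest of its group for Ccne1 (1.24) and Rrm2 (0.44). LAP B-ALL 4 was the lowest of its group for both (-1.26 and -0.68). For Gins2, Rfc3 and Pole these 2 tumours stood the other way round. The set was chosen after its values were seen, so calls made without it follow in part from that choice and are no separate support.

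LAP B-ALL against LAP/Blnk preB-ALL had a median of -0.12, which with 1 tumour left out ran from -0.20 (without LAP B-ALL 3) to -0.09 (without LAP B-ALL 1) and was -0.11 without the 3 tumours. The lowest adjusted p of all tumour comparisons were those of Prim1 (-0.46, adjusted p = 0.0743), Pola1 (-0.69, 0.0755) and Uhrf1 (-0.70, 0.0984). In this comparison 6 genes were lower without overlap (Gins1, Gins2, Pola1, Prim1, Tyms and Uhrf1), where 11.3% of all genes were lower and 10.9% higher. Without LAP B-ALL 4, Ccne1 passed (1.70), which is 2.86% of the 35 genes, below the 11.6% of all genes called. Without the 3 tumours Cdc6, Cdt1 and Ccne1 passed as higher and Gins2 and Prim1 as lower, in all 14.3% of the 35 genes, near the 15.8% of all genes.

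The values behind these comparisons are given by role. Among origin licensing genes, Cdc6 was at 0.08, -0.19, -0.42, -0.07 and -1.38 in Blnk preB-ALL 1 to 5, -0.69, -0.29 and -0.09 in LAP/Blnk preB-ALL 1 to 3, 0.07, 0.13, 0.12 and 0.70 in LAP preB-ALL 1 to 4 and 0.54, 0.44, 1.24 and -0.21 in LAP B-ALL 1 to 4. LAP B-ALL 1 to 3 and LAP preB-ALL 4 were the 4 highest tumours, and LAP B-ALL 4 lay with the Blnk and LAP/Blnk tumours. Cdt1 was at 0.20, -0.27, -0.10, 0.10 and -0.85 in Blnk preB-ALL 1 to 5, -0.28, -0.34 and -0.13 in LAP/Blnk preB-ALL 1 to 3, 0.26, -0.27, 0.73 and 0.73 in LAP preB-ALL 1 to 4 and 0.32, 0.54, 0.76 and -0.38 in LAP B-ALL 1 to 4. Here LAP preB-ALL 3 joined those 4 tumours as high and the other groups overlapped. Orc1 was at -0.22, -0.89, -0.18, 0.30 and -1.35 in Blnk preB-ALL 1 to 5, -0.09, 0.54 and -0.40 in LAP/Blnk preB-ALL 1 to 3, -0.09, 0.14, 0.64 and 0.69 in LAP preB-ALL 1 to 4 and 0.09, 0.25, 0.66 and -0.90 in LAP B-ALL 1 to 4. Blnk preB-ALL 5 and LAP B-ALL 4 were its lowest tumours, and all groups overlapped. Orc6 ranged from -0.50 to 0.25.

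The same 4 tumours were high for both G1/S regulators. Ccne1 was at 0.53, 0.36, -0.03, -0.02 and -0.36 in Blnk preB-ALL 1 to 5, 0.02, -0.06 and -1.04 in LAP/Blnk preB-ALL 1 to 3, 0.17, -0.46, -0.64 and 1.24 in LAP preB-ALL 1 to 4 and 1.41, 1.05, 1.56 and -1.26 in LAP B-ALL 1 to 4. LAP B-ALL 1 to 3 and LAP preB-ALL 4 were at 1.05 or more and no other tumour exceeded 0.53, while LAP B-ALL 4 was the lowest of all, so the LAP B-ALL spanned the whole range. E2f1 was at 0.32, -0.60, -0.25, -0.29 and -0.58 in Blnk preB-ALL 1 to 5, -0.11, -0.01 and -0.03 in LAP/Blnk preB-ALL 1 to 3, 0.01, 0.17, 0.26 and 0.43 in LAP preB-ALL 1 to 4 and 0.46, 0.48, 0.61 and -0.35 in LAP B-ALL 1 to 4. The 4 tumours were again the 4 highest, and LAP B-ALL 4 was below all LAP/Blnk and LAP preB-ALL. These 4 are the tumours with erythroid marker medians above 5 and with low Vpreb1, which was low in LAP preB-ALL 2 as well. The part of erythroid cells in these values was not tested.

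**Figure D4:**
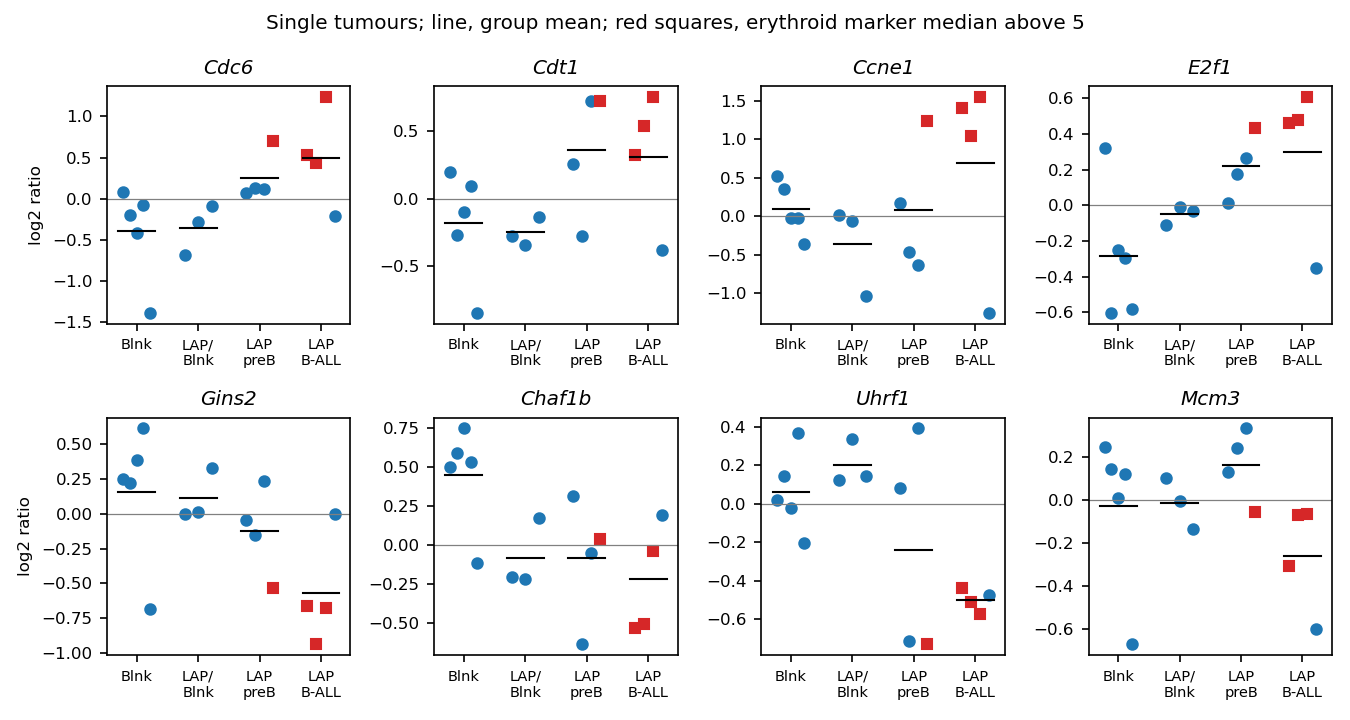
Log2 ratio of 8 replication genes in single tumours by group, with the group mean as a line and red squares for the 4 tumours whose erythroid marker median was above 5. The squares are the highest tumours for Cdc6, Ccne1 and E2f1 and lie at the lower end for Gins2, and the scale differs between panels.

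Of the helicase partners, Gins2, a GINS subunit, was at 0.25, 0.22, 0.39, 0.62 and -0.68 in Blnk preB-ALL 1 to 5, 0.00, 0.01 and 0.33 in LAP/Blnk preB-ALL 1 to 3, -0.04, -0.15, 0.24 and -0.54 in LAP preB-ALL 1 to 4 and -0.66, -0.94, -0.67 and 0.00 in LAP B-ALL 1 to 4. LAP B-ALL 1 to 3, LAP preB-ALL 4 and Blnk preB-ALL 5 were low, and the first 4 Blnk tumours were above 0. Gins3 was at 0.00, -0.22, 0.02, 0.02 and -0.19 in Blnk preB-ALL 1 to 5, 0.04, 0.22 and 0.22 in LAP/Blnk preB-ALL 1 to 3, -0.34, 0.10, -0.27 and -0.16 in LAP preB-ALL 1 to 4 and -0.12, 0.00, 0.11 and -0.16 in LAP B-ALL 1 to 4. The LAP/Blnk tumours lay above all Blnk tumours by a small margin. Cdc45, at 0.69, 0.30, 0.36, 0.22 and -0.34 in Blnk preB-ALL 1 to 5, -0.05, -0.02 and 0.31 in LAP/Blnk preB-ALL 1 to 3, -0.10, -0.01, -0.06 and 0.01 in LAP preB-ALL 1 to 4 and -0.08, -0.24, 0.11 and 0.18 in LAP B-ALL 1 to 4, was higher in Blnk preB-ALL 1 to 4 than in the LAP preB-ALL and lower in the fifth. Gins1 ranged from -0.68 to 0.65.

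The MCM ring varied mostly with single tumours. Mcm2 was at -0.01, -0.19, 0.02, 0.23 and -0.43 in Blnk preB-ALL 1 to 5, 0.01, 0.04 and -0.09 in LAP/Blnk preB-ALL 1 to 3, 0.28, -0.07, 1.17 and 0.24 in LAP preB-ALL 1 to 4 and -0.32, -0.12, 0.34 and -0.58 in LAP B-ALL 1 to 4. LAP preB-ALL 3 was the highest by far, and all groups overlapped. Mcm3 was at 0.25, 0.14, 0.01, 0.12 and -0.67 in Blnk preB-ALL 1 to 5, 0.10, -0.01 and -0.14 in LAP/Blnk preB-ALL 1 to 3, 0.13, 0.24, 0.33 and -0.05 in LAP preB-ALL 1 to 4 and -0.31, -0.07, -0.07 and -0.60 in LAP B-ALL 1 to 4. Blnk preB-ALL 5 and LAP B-ALL 4 were the lowest, and every LAP B-ALL lay below every LAP preB-ALL. Mcm4 was at 0.35, 0.17, 0.24, 0.09 and -0.38 in Blnk preB-ALL 1 to 5, -0.01, -0.03 and 0.51 in LAP/Blnk preB-ALL 1 to 3, -0.01, 0.05, 0.01 and -0.24 in LAP preB-ALL 1 to 4 and -0.25, -0.28, 0.10 and -0.50 in LAP B-ALL 1 to 4. The same 2 tumours were lowest and LAP/Blnk preB-ALL 3 the highest. Mcm5 was at -0.10, -0.15, 0.01, -0.01 and -0.54 in Blnk preB-ALL 1 to 5, 0.11, 0.24 and 0.05 in LAP/Blnk preB-ALL 1 to 3, -0.10, 0.40, 0.09 and 0.09 in LAP preB-ALL 1 to 4 and -0.10, -0.10, 0.08 and -0.61 in LAP B-ALL 1 to 4. Its LAP/Blnk tumours lay above all Blnk tumours, and the 2 low tumours recurred. Mcm6 was at 0.18, -0.08, -0.01, 0.09 and -0.51 in Blnk preB-ALL 1 to 5, -0.12, -0.04 and 0.01 in LAP/Blnk preB-ALL 1 to 3, 0.25, 0.51, 0.36 and 0.03 in LAP preB-ALL 1 to 4 and -0.17, -0.38, 0.09 and -0.46 in LAP B-ALL 1 to 4. LAP preB-ALL were above all LAP/Blnk tumours and, but for 1 tumour in each group, above the LAP B-ALL. Mcm7 was at 0.34, 0.21, 0.08, 0.16 and -0.85 in Blnk preB-ALL 1 to 5, -0.21, -0.18 and -0.20 in LAP/Blnk preB-ALL 1 to 3, 0.51, -0.28, 0.85 and 0.08 in LAP preB-ALL 1 to 4 and -0.24, -0.08, 0.22 and -0.52 in LAP B-ALL 1 to 4. Blnk preB-ALL 5 was apart from the first 4 of its group, and LAP preB-ALL spanned more than 1 log2 unit. Mcm10 ranged from -0.62 in Blnk preB-ALL 5 to 0.29 in LAP preB-ALL 2.

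Among polymerases and primase, 2 genes stood higher in the LAP/Blnk tumours than in the LAP B-ALL. Pola1 was at 0.04, -0.16, 0.06, 0.24 and -0.44 in Blnk preB-ALL 1 to 5, 0.33, 0.49 and 0.30 in LAP/Blnk preB-ALL 1 to 3, 0.21, -0.62, 0.11 and -0.31 in LAP preB-ALL 1 to 4 and -0.52, -0.04, -0.21 and -0.49 in LAP B-ALL 1 to 4. The LAP/Blnk tumours were above every other tumour. Prim1 was at 0.14, -0.12, -0.04, 0.16 and -0.39 in Blnk preB-ALL 1 to 5, 0.27, 0.37 and 0.13 in LAP/Blnk preB-ALL 1 to 3, 0.04, 0.25, 0.21 and -0.12 in LAP preB-ALL 1 to 4 and -0.21, -0.32, -0.04 and -0.22 in LAP B-ALL 1 to 4. LAP/Blnk tumours lay above the LAP B-ALL with no overlap and overlapped the other groups. Pole was at 0.59, -0.14, 0.02, 0.20 and -0.39 in Blnk preB-ALL 1 to 5, 0.12, 0.02 and -0.07 in LAP/Blnk preB-ALL 1 to 3, 0.58, 0.37, 0.66 and -0.08 in LAP preB-ALL 1 to 4 and -0.30, -0.46, -0.44 and -0.02 in LAP B-ALL 1 to 4. LAP B-ALL were at or below -0.02 and 3 of the 4 LAP preB-ALL at 0.37 or more, with LAP preB-ALL 4 the exception. Pold1 ranged from -0.61 to 0.86 and Prim2, the largest fall in the cell line, from -0.45 to 0.41.

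Of the clamp and loader, Pcna was at -0.01, -0.08, 0.16, 0.25 and -0.30 in Blnk preB-ALL 1 to 5, 0.13, 0.21 and 0.30 in LAP/Blnk preB-ALL 1 to 3, 0.02, -0.15, -0.02 and -0.05 in LAP preB-ALL 1 to 4 and -0.20, 0.01, 0.18 and -0.13 in LAP B-ALL 1 to 4. The LAP/Blnk tumours lay above the LAP preB-ALL without overlap but not above the Blnk tumours. Rfc5 was at -0.12, -0.11, -0.35, -0.30 and -0.48 in Blnk preB-ALL 1 to 5, -0.05, 0.05 and -0.30 in LAP/Blnk preB-ALL 1 to 3, 0.53, 0.43, 0.05 and 0.60 in LAP preB-ALL 1 to 4 and 0.21, 0.11, 0.13 and -0.71 in LAP B-ALL 1 to 4. LAP preB-ALL were above all Blnk tumours, and LAP B-ALL 4 was the lowest tumour. Rfc2 was at 0.01, 0.20, -0.22, 0.00 and -0.44 in Blnk preB-ALL 1 to 5, -0.15, -0.13 and -0.36 in LAP/Blnk preB-ALL 1 to 3, 0.59, 0.61, 0.03 and 0.01 in LAP preB-ALL 1 to 4 and 0.16, 0.00, -0.05 and -0.38 in LAP B-ALL 1 to 4, and Rfc3 at 0.28, 0.03, -0.01, 0.01 and -0.57 in Blnk preB-ALL 1 to 5, -0.12, 0.02 and -0.28 in LAP/Blnk preB-ALL 1 to 3, 0.16, 0.76, 0.21 and -0.31 in LAP preB-ALL 1 to 4 and -0.69, -0.39, -0.30 and 0.05 in LAP B-ALL 1 to 4. Both were highest in LAP preB-ALL 2 and lowest in Blnk preB-ALL 5 (Rfc2) and LAP B-ALL 1 (Rfc3). Rfc4 was at 0.77, 0.21, 0.15, -0.09 and -0.80 in Blnk preB-ALL 1 to 5, -0.61, -0.50 and -0.01 in LAP/Blnk preB-ALL 1 to 3, -0.21, 0.03, 0.04 and 0.01 in LAP preB-ALL 1 to 4 and -0.14, 0.03, 0.27 and -0.25 in LAP B-ALL 1 to 4. Its Blnk tumours alone held the highest and the lowest value of all 16. Rfc1 ranged from -0.36 to 0.60.

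Of the single-strand binding genes, Rpa2 was at 0.32, -0.18, 0.16, 0.33 and -0.84 in Blnk preB-ALL 1 to 5, -0.29, -0.25 and -0.17 in LAP/Blnk preB-ALL 1 to 3, 0.15, 0.02, 0.07 and 0.13 in LAP preB-ALL 1 to 4 and -0.18, -0.02, 0.05 and -0.43 in LAP B-ALL 1 to 4. Blnk preB-ALL 5 was lowest, and LAP/Blnk tumours lay below the LAP preB-ALL. Rpa1 was at 0.01, 0.13, -0.17, -0.06 and -0.15 in Blnk preB-ALL 1 to 5, 0.14, 0.05 and 0.05 in LAP/Blnk preB-ALL 1 to 3, 0.10, 0.19, -0.20 and -0.23 in LAP preB-ALL 1 to 4 and -0.25, -0.01, -0.20 and 0.29 in LAP B-ALL 1 to 4, the narrowest spread of the 35 genes. In nucleotide supply, Rrm2 was at -0.34, 0.07, 0.19, -0.07 and -0.44 in Blnk preB-ALL 1 to 5, 0.51, 0.53 and -0.15 in LAP/Blnk preB-ALL 1 to 3, -0.44, -0.73, -0.76 and 0.44 in LAP preB-ALL 1 to 4 and 0.25, 0.46, 0.75 and -0.68 in LAP B-ALL 1 to 4. The 4 tumours with high Ccne1 were at 0.25 or more here too, beside LAP/Blnk preB-ALL 1 and 2. Tyms was at -0.29, 0.02, 0.80, 0.90 and 0.16 in Blnk preB-ALL 1 to 5, 0.35, 0.40 and 0.48 in LAP/Blnk preB-ALL 1 to 3, 1.36, -0.16, -0.28 and -0.31 in LAP preB-ALL 1 to 4 and -0.16, -0.02, -0.05 and -0.13 in LAP B-ALL 1 to 4. LAP preB-ALL 1 was the highest tumour, and the LAP/Blnk tumours were above all LAP B-ALL. Rrm1 ranged from -0.83 in Blnk preB-ALL 5 to 0.30 in LAP B-ALL 3.

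Of the chromatin genes, Chaf1b was at 0.50, 0.59, 0.75, 0.53 and -0.11 in Blnk preB-ALL 1 to 5, -0.20, -0.21 and 0.18 in LAP/Blnk preB-ALL 1 to 3, 0.31, -0.63, -0.05 and 0.04 in LAP preB-ALL 1 to 4 and -0.53, -0.50, -0.04 and 0.19 in LAP B-ALL 1 to 4. Blnk preB-ALL 1 to 4 were at 0.50 or more and no other tumour exceeded 0.31. Uhrf1 was at 0.02, 0.14, -0.02, 0.37 and -0.20 in Blnk preB-ALL 1 to 5, 0.13, 0.34 and 0.15 in LAP/Blnk preB-ALL 1 to 3, 0.08, -0.71, 0.39 and -0.73 in LAP preB-ALL 1 to 4 and -0.44, -0.51, -0.57 and -0.47 in LAP B-ALL 1 to 4. All LAP B-ALL, the fourth included, were below all Blnk and all LAP/Blnk tumours, and LAP preB-ALL 2 and 4 were lower still. The 2 LAP preB-ALL low for Uhrf1 are those with low Vpreb1.

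Spread over the 16 tumours was described for each gene. The median SD was 0.35 for the 35 genes and 0.28 for all genes. Ccne1 (SD 0.84), Orc1 (0.60) and Cdc6 (0.59) varied most, and Rpa1 (0.17), Gins3 (0.17) and Pcna (0.17) least.

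Whether the effect of LAP differed between Blnk-deficient cells and Blnk-deficient tumours was tested as an interaction, with the difference in cells subtracted from that in tumours. None of the 35 genes passed, where 1.05% of all genes did, and 8 had an unadjusted p under 0.05, where 13% of all genes did. The median was 0.19, against -0.01 over all genes, and 28 of 35 genes were above and 7 below 0 (51.6% of all genes below), but without Blnk preB-ALL 5 the median was 0.04. The lowest adjusted p were for Gins3 (0.35, SE 0.10, 0.107), Prim1 (0.44, SE 0.14, 0.169) and Pola1 (0.48, SE 0.16, 0.181). This fit gave cells and tumours 1 common spread. Its median SE over the 35 genes was 0.1998, below the 0.2144 of the LAP/Blnk against Blnk tumour difference alone. The SE and p-values of the interaction therefore do not measure the spread of the tumours and can be too small. The falls in cells and the lack of calls in the tumours therefore were not shown to differ for any single gene. In LAP/Blnk against Blnk tumours the 6 largest falls of the cell line stood at -0.12 (Prim2), -0.46 (Ccne1), 0.14 (Uhrf1), -0.03 (Pole), -0.19 (Mcm7) and -0.07 (Rfc3), with SE from 0.18 to 0.58.

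**Figure D5:**
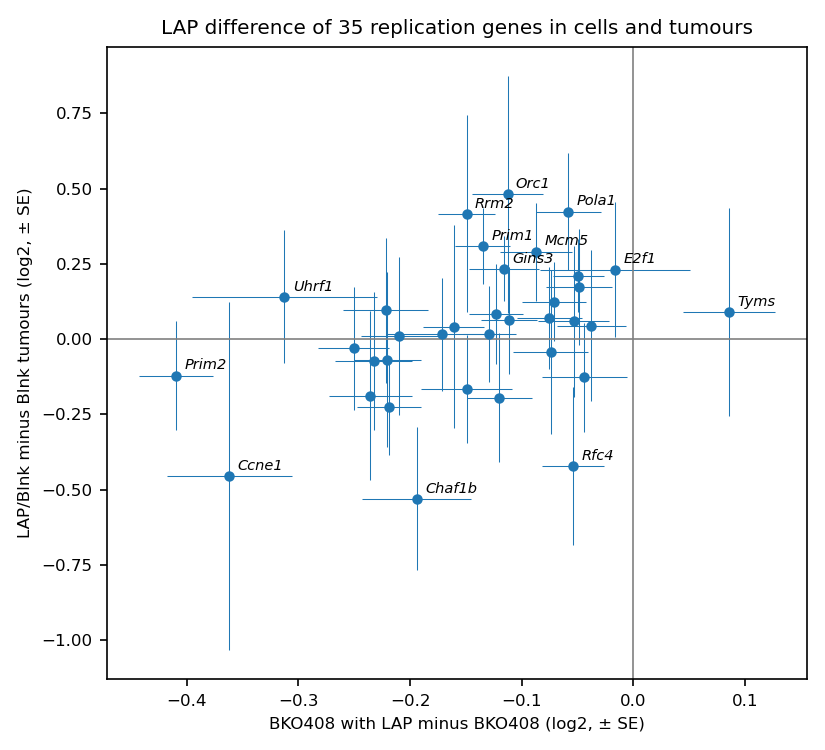
Difference with LAP for 35 replication genes, in BKO408 (x, log2) and between LAP/Blnk and Blnk preB-ALL (y, log2), each with its standard error. Points lie left of 0 on the x axis but for Tyms, and on both sides of 0 on the y axis, where 22 lie above and 13 below.

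Among the 50 further replication genes, few passed in the tumours. In LAP B-ALL 1 passed against Blnk preB-ALL (1.45% of all genes) and 4 against LAP/Blnk preB-ALL (3.52% of all genes). In LAP/Blnk against LAP preB-ALL 1 passed (2.37% of all genes), and none did in the other comparisons. Rif1, which sets the timing of origins, was at 0.24, 0.43, -0.10, 0.44 and -0.08 in Blnk preB-ALL 1 to 5, 0.17, 0.20 and 0.22 in LAP/Blnk preB-ALL 1 to 3, 0.05, 0.01, -0.01 and -0.61 in LAP preB-ALL 1 to 4 and -0.80, -0.79, -0.76 and -0.88 in LAP B-ALL 1 to 4. The LAP B-ALL were below every Blnk and LAP/Blnk tumour, with a difference of -0.99 (SE 0.15, adjusted p = 0.00722) from Blnk and an adjusted p of 0.00621 from LAP/Blnk preB-ALL. Pola2 (-1.48, adjusted p = 0.0213), the regulatory partner of Pola1, Rnaseh2c (-1.16) and Asf1b (-0.67), a histone chaperone, were lower as well in LAP B-ALL than in LAP/Blnk preB-ALL. Asf1b was also higher in LAP/Blnk than in LAP preB-ALL (0.77, adjusted p = 0.0225). Each was read on its most variable probe set only, of 4 for Rif1, 3 for Rnaseh2c, 2 for Pola2 and 1 for Asf1b. The Rif1 probe set spread from -0.87 to 0.21 among the control arrays of the cell line. Pola2 and Rnaseh2c lie on chromosome 19, whose 568 genes had a median difference of 0.24 between LAP/Blnk and Blnk preB-ALL against -0.03 on the other autosomes. That is another comparison than the one that called them, and there Pola2 (0.71) and Rnaseh2c (0.60) were higher in LAP/Blnk but did not pass. Of the 50 genes 3 lie there, the other being Fen1. It was higher in LAP/Blnk than in Blnk preB-ALL (0.70) and lower in LAP B-ALL than in LAP/Blnk preB-ALL (-1.05), but passed in neither. Blnk lies on chromosome 19 too, and none of the 35 genes does. The part of that chromosome in the differences of Pola2, Rnaseh2c and Fen1 was not tested.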

How the data were processed

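RNA of 24 samples was measured on Affymetrix arrays from 100 ng of total RNA, per the labels' protocols. The submitters' processing notes name MAS5, without a version. The authors deposited 1 table of log2 ratios (the log base is not stated and was taken as 2) for 45141 probe sets; every probe set has a median of 0 over the 8 cell-line arrays and over the 16 tumours, as tested on the values. Levels, detection calls, background correction and array dates were not used here, so dim genes could not be left out.

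Probe sets with 1 gene symbol (28898; 551 had several and 15692 none) in the platform annotation of 2016 were used, of which 28689 matched RefSeq symbols of GRCm38.p6. For each of 17097 genes, the probe set with the largest SD around the cell-line and tumour means was kept. limma 3.58.1 in R 4.3.3 (lmFit, eBayes, Benjamini-Hochberg over all genes, threshold 0.05) was run on the 8 cell-line arrays, on the 16 tumours and, for the interaction, on the Blnk-deficient groups; the fits were tested on simulated data. The members and gene lists were chosen with earlier results of these data known. Genes named with every sample's value are the 6 largest differences past the threshold in each direction, the largest in each role, and Mcm2 to Mcm7, Pcna, E2f1 and Ccne1; of other replication genes, the 4 largest past the threshold in each direction are named. Alternatives were the mean of probe sets, only the more variable genes, other scalings, a variance trend, array weights, other sample sets, the replicate number as a block, and leaving out each array. The more variable genes are those above the median SD. Leaving out 3 tumours together was added after the data were seen. Same-numbered samples did not deviate together in every pair (correlations from -0.64 to 0.383), so numbers were not taken to pair samples.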

Additional observations from a re-analysis of the deposited data

Results flagged for a closer look

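In groups of 4 or 5 samples, the highest or lowest sample was compared with the others by its gap over the range of the group (Dixon's 95% limit). Of 180 such tests, 13 passed, where chance gives about 1 in 20. For Blnk preB-ALL 5 the median over the 35 replication genes (-0.45), Mcm3 (-0.67), Mcm7 (-0.85) and Gins1 (-0.48) were far below the other Blnk tumours. In the library labelled LAP B-ALL 4, Rfc5 (-0.71) and E2f1 (-0.35) were far below the other LAP B-ALL.

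Among LAP preB-ALL, Cdc6 was far higher in tumour 4 (0.70), and Tyms far higher (1.36) and Rfc4 far lower (-0.21) in tumour 1. In the cell line, control array 2 was low for Mcm3 (-0.0106) and high for Rfc5 (0.0516), and LAP array 4 was above the other LAP arrays for Prim2 (-0.16) and Gins3 (-0.0145).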

How the results depend on the processing

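Of 280 alternative counts and medians 257 kept their side of the threshold and stayed near the value reported; of 344 alternative values of single genes 293 did, 51 no longer passed and 0 reversed. In the cell line, the mean of the probe sets of a gene gave a median difference of -0.11, the more variable genes 14 called members of 23 (60.9%, against 37% of those genes) and a median of -0.15, and all 24 arrays in 1 fit 0 called members (0.123% of all genes); leaving out 1 array gave 17 to 22, where 18% to 20.6% of all genes were called. Here and below, the percentages in brackets are the share of all genes called in the same fit. For LAP B-ALL against Blnk preB-ALL, called members were 7 with array weights (21.2%), 1 with only the groups compared (2.4%), 0 to 4 with 1 tumour left out (10.7% where 4) and 8 without the 3 tumours that stand apart (16.5%). For LAP/Blnk against LAP preB-ALL the median was -0.33 in the more variable genes and -0.20 to -0.12 with 1 tumour left out, and 2 members passed without the 3 tumours (3.09%). For LAP B-ALL against LAP preB-ALL the counts were 0 to 1 with 1 tumour left out (1.7% where 1) and 8 without the 3 tumours (7.98%). For LAP B-ALL against LAP/Blnk preB-ALL they were 8 with array weights (23.8%), 3 with only the groups compared (4.76%), 0 to 1 with 1 tumour left out (11.6% where 1) and 5 without the 3 tumours (15.8%). The replicate block, whose pairing is only a shared number and which drops LAP B-ALL 4, gave 8 members there (15.7%) and 22 in the cell line (20%). For the interaction, array weights gave 3 (4.8%) and leaving out 1 sample 0 to 1 (1.25% where 1), with medians from 0.041 to 0.242 (0.0409 without Blnk preB-ALL 5). The cause of these changes was not tested. The deposited ratios hold no signal over background, so the reliability of dim probe sets is unknown.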
